A study of Homo sapiens with 12 samples.

Results

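This report follows 10 genes for amino acid transporters of the plasma membrane in A549, an established line grown from a human lung adenocarcinoma. The genes were listed by name, with earlier results of these data known: SLC7A5, SLC3A2, SLC1A5, SLC1A4, SLC38A1, SLC38A2, SLC7A1, SLC6A9, SLC43A1 and SLC7A8. Of the 10, 9 had a row in both count tables, out of 25433 genes with a row in either table. SLC7A8 had none and was not analysed here, and every row in the tables exceeded 0.1 CPM (counts scaled to a common library size) in at least 4 libraries.

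The 12 libraries fell into 3 groups of 4. Control cells received neither agent, the TGF-β1 group received 10 ng/mL TGF-β1, and the acetate group received the same dose plus sodium acetate at 40 mM, all over 2 days. All groups were one cell line at passage 5 to 10, grown in medium with fetal bovine serum. TGF-β1 is a growth factor known to drive epithelial-mesenchymal transition. Cells can turn acetate into acetyl-CoA. Acetate was never given alone, nor sodium as another salt, so effects of acetate, of sodium and of their joint use with TGF-β1 cannot be told apart.

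Amino acid transporters differ in what they carry and in what drives them. SLC7A5 is an exchanger of large neutral amino acids such as leucine. It reaches the cell surface as a heterodimer with the heavy chain SLC3A2, and SLC7A8 is another light chain of SLC3A2. SLC1A5 and SLC1A4 are sodium-dependent exchangers of small neutral amino acids, SLC1A5 being a main carrier of glutamine. SLC38A1 and SLC38A2 take up glutamine and alanine with sodium, SLC7A1 carries arginine and lysine, SLC6A9 carries glycine, and SLC43A1 carries large neutral amino acids without a heavy chain. Several of these genes are known targets of ATF4, the transcription factor that cells make when amino acids run short. ATF4 binds with C/EBP partners to an element whose core can be written TGATGNAA, and CACGTG is the E-box read by MYC and its relatives.

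Those letters were looked for on both strands in RefSeq promoter windows of build GRCh38.p14, from 250 bases before to 50 bases after each start. The 10 genes have 20 such windows, some of them overlapping. TGATGNAA stood in 5 windows, of 5 genes, against 3.62% of 35116 windows and 4.46% of 27305 genes in all. CACGTG stood in 4 windows, of 4 genes, against 7.26% of windows and 8.77% of genes. The 10 genes have more windows per gene than genes in all, so the shares per gene are not like for like. No window of the 10 genes held both. The stretches with TGATGNAA are shown because ATF4 and its targets are followed beside the transporters. Each is read 5′ to 3′ on the strand of the gene, and capitals mark the match, which lies on the opposite strand in SLC3A2 and SLC1A4.
SLC3A2: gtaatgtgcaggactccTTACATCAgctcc
SLC1A5: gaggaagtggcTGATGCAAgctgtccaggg
SLC1A4: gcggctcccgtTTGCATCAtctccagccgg
SLC38A1: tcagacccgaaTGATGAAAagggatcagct
SLC7A1: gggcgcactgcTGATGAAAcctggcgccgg
The stretch of SLC3A2 is chr11:62881719-62881748 on the plus strand, with the match 38 bases into the transcript. That of SLC1A5 is chr19:46784893-46784922 on the minus strand, 97 bases before the start of its window's transcript. For SLC1A4 it is chr2:64989381-64989410 on the plus strand, the match beginning 7 bases before a start. For SLC38A1 it is chr12:46266502-46266531 on the minus strand, the match beginning 4 bases before a start. Both of these matches run across the start. For SLC7A1 it is chr13:29595663-29595692 on the minus strand, the match beginning 8 bases into the transcript. In GENCODE release 29 the matches of SLC3A2, SLC1A5 and SLC7A1 lie in untranslated exon sequence and those of SLC1A4 and SLC38A1 in an intron.
The E-box stretches are shown for the 3 measured genes that hold one.
SLC7A5: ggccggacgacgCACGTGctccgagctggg
SLC1A5: ggcgggagtggtCACGTGgacaggacgggg
SLC43A1: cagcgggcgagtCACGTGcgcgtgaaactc
They lie at chr16:87869620-87869649, chr19:46787326-46787355 and chr11:57515797-57515826, all on the minus strand, 130, 50 and 112 bases before the start of the window's transcript. By GENCODE release 29 the matches of SLC7A5 and SLC43A1 lie upstream of the gene, and that of SLC1A5 in untranslated exon sequence. A match is a description of letters and not of binding, which was not measured.

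Total counts ran from 38400896 to 53055990 in control, from 37202599 to 53936023 with TGF-β1 and from 34698057 to 41575904 with acetate. The count columns carry codes that match no sample label: S1 to S4 were taken as control, the codes S15 to S18 as TGF-β1 and S22 to S25 as acetate. That placement follows the tables in which they stand, and every comparison rests on it. No label names separate cultures, so the spread behind each p-value is that of these libraries and may be technical. In bulk RNA, fewer cells of a kind and less RNA per cell cannot be told apart. The epithelial keratins KRT7, KRT8, KRT18 and KRT19 were all present, summing to 5578 to 7614 CPM, but moved with the groups. KRT19 fell from 36.6 ± 3.19 to 7.01 ± 0.649 CPM under TGF-β1 and stood at 58.4 ± 8.99 with acetate. KRT18 fell 1.34-fold and KRT7 rose 1.26-fold under TGF-β1, KRT8 was not called there, and all 4 rose with acetate. Their part in the results was not tested. Of 5 leukocyte markers only CD68 had a row, at 9.78 to 12.5, 13.1 to 16.4 and 21.6 to 23.3 CPM in control, TGF-β1 and acetate. Its part in the results was not tested. None of 3 endothelial markers had a row, and of 3 erythroid markers ALAS2 had one but was too low to test. With composition scaling (TMM) 7437 genes were called higher and 6792 lower with acetate, and 7518 and 7224 with TGF-β1. With plain library totals these were 9592 and 4699, and 6078 and 8676. The median log2 fold change of all genes then went from 0.03 to 0.16 for acetate and from 0.02 to -0.09 for TGF-β1.

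The transporters spanned more than 2 orders of magnitude in level per length, and their order depended on the transcript length used. Per kilobase of the longest transcript, SLC3A2 stood highest in control at 322 ± 10.8 CPM per kilobase (SD, n = 4), followed by SLC7A5 at 304 ± 5.14, SLC1A5 at 179 ± 4.85, SLC38A2 at 117 ± 4.85 and SLC38A1 at 75.4 ± 3.23. SLC7A1 (19.8 ± 1.11), SLC1A4 (12.2 ± 0.202), SLC6A9 (6.22 ± 0.519) and SLC43A1 (2.43 ± 0.0795) were far lower. In each of the 3 groups no neighbours in that order overlapped between libraries. On the same scale, under TGF-β1 SLC7A5 stood above SLC3A2, at 334 ± 15.3 against 259 ± 7.90 CPM per kilobase, and SLC38A2 above SLC1A5, at 90.1 ± 4.90 against 53.5 ± 1.99. With acetate SLC6A9 also stood above SLC1A4, at 3.00 ± 0.207 against 2.24 ± 0.108. Per kilobase of the median transcript length, these orders turned or were already present in control. SLC3A2 then stood above SLC7A5 in every group, at 963 ± 29.4 against 380 ± 17.4 CPM per kilobase under TGF-β1. SLC38A2 stood above SLC1A5 in control too, at 792 ± 32.8 against 285 ± 7.72. With acetate SLC1A4 stood above SLC6A9, at 10.6 ± 0.511 against 4.99 ± 0.344.

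**Figure D1:**
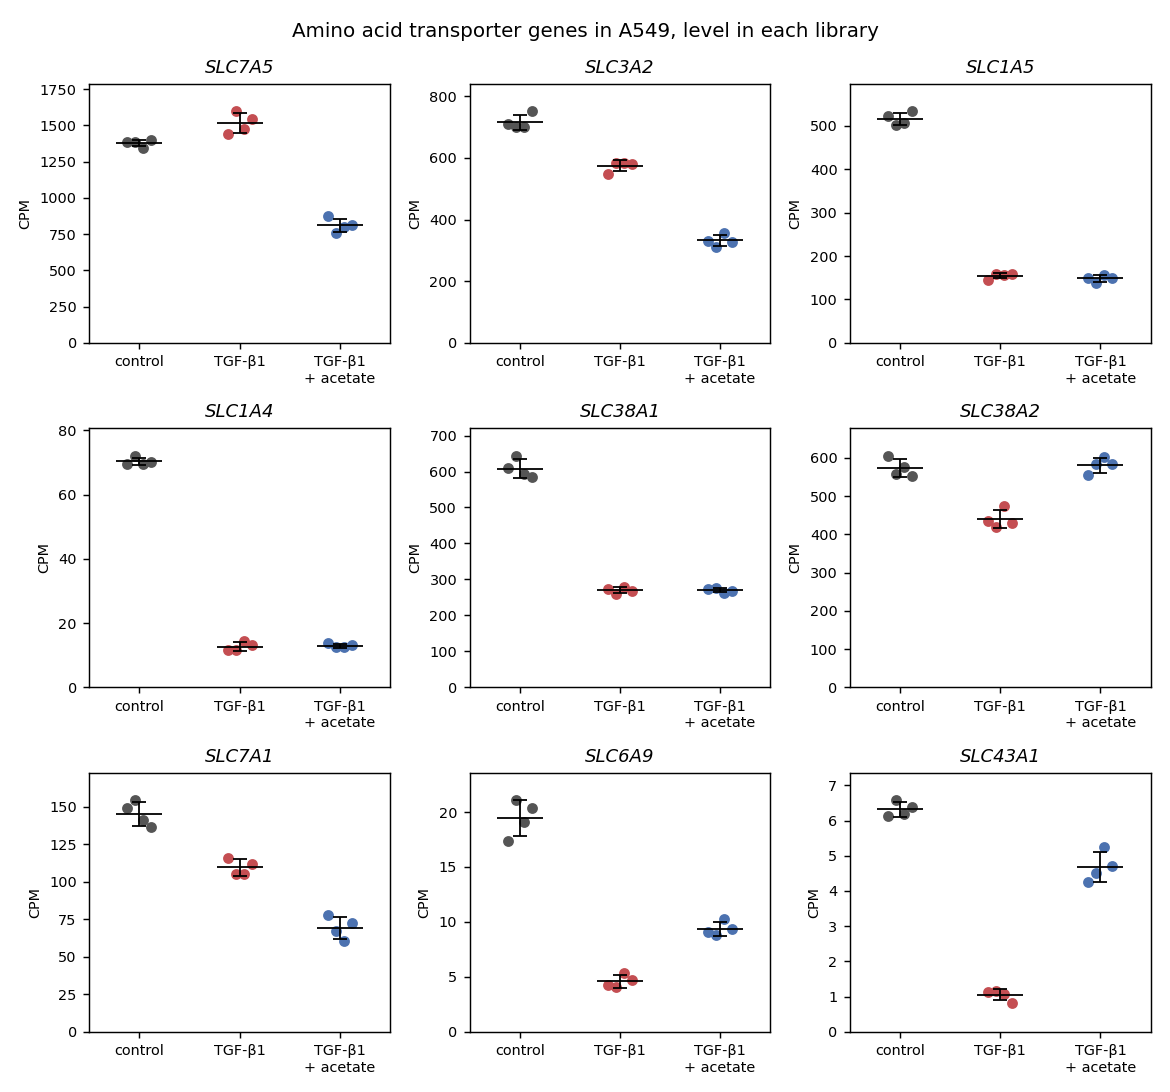
Level of each transporter gene in CPM (counts scaled to a common library size by TMM) in the 12 libraries, with 1 point per library and the mean and SD of each group of 4 as bars. Each panel has its own axis from 0. SLC1A4 sits at 69.49 to 72.03 CPM in control and between 11.6 and 14.3 in every other library, while SLC43A1 falls and then rises to 4.25 to 5.25.

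The first comparison asked what TGF-β1 alone changed. Of the 9 genes, 8 fell and 1 rose at an edgeR adjusted p below 0.05, where 66.9% of all 22051 tested genes were called, 32.8% lower and 34.1% higher. Falls of at least 2-fold were found for 5 of the 9, against 8.68% of all genes, and the rise was smaller than 2-fold, a size reached upward by 8.92% of all genes. The median log2 fold change was -1.17 over the 9 genes and 0.02 over all genes. The groups did not overlap for any of the 9, as for 61.2% of all genes. The genes were chosen with earlier results of these data known. Their counts beside all genes, here and below, are thus no independent evidence.

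Both sodium-dependent exchangers of small neutral amino acids fell by more than 3-fold. SLC1A5 (ENSG00000105281.12, chromosome 19, 46774883 to 46788594 on hg38) stood at 523, 503, 508 and 533 CPM in the control libraries and at 146, 158, 156 and 158 with TGF-β1. All 4 TGF-β1 libraries lay far below every control library, with a log2 fold change of -1.74 (SE 0.04, edgeR adjusted p = 3.1e-16). SLC1A4 (ENSG00000115902.10, chromosome 2, 64988477 to 65023865) stood at 69.5, 72.03, 69.6 and 70.3 CPM in control and at 11.6, 11.6, 14.3 and 13.0 with TGF-β1. That was a fall of 5.52-fold (log2 fold change -2.47, SE 0.06, edgeR adjusted p = 9.0e-16).

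The sodium-coupled glutamine carriers both fell. SLC38A1 (ENSG00000111371.15, chromosome 12, 46183063 to 46270017) went from 611, 643, 593 and 585 CPM to 272, 259, 279 and 267. Its log2 fold change was -1.17 (SE 0.04, edgeR adjusted p = 8.3e-14). SLC38A2 (ENSG00000134294.13, chromosome 12, 46358189 to 46372867), its neighbour on the chromosome and a gene known to respond to amino acid starvation, went from 605, 559, 576 and 552 CPM to 436, 420, 475 and 430. This smaller fall had a log2 fold change of -0.37 (SE 0.04, edgeR adjusted p = 6.9e-07).

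The glycine carrier SLC6A9 and SLC43A1, a carrier of large neutral amino acids, fell as well. SLC6A9 (ENSG00000196517.11, chromosome 1, 43991500 to 44031467) stood at 17.4, 21.1, 19.1 and 20.4 CPM in control and 4.24, 4.08, 5.33 and 4.70 with TGF-β1, a fall of 4.20-fold (edgeR adjusted p = 1.6e-12). SLC43A1 (ENSG00000149150.8, chromosome 11, 57484534 to 57515786) stood at 6.12, 6.57, 6.18 and 6.40 CPM in control and 1.13, 1.17, 1.09 and 0.828 with TGF-β1. The last was the greatest change of the 9, at 5.98-fold lower (log2 fold change -2.58, SE 0.11, edgeR adjusted p = 2.5e-12). The cationic carrier SLC7A1 (ENSG00000139514.12, chromosome 13, 29509410 to 29595688) fell less, from 150, 154, 141 and 136 CPM to 116, 105, 105 and 112 (log2 fold change -0.40, SE 0.05, edgeR adjusted p = 8.1e-07).

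Transcripts for the chains of the large neutral amino acid exchanger each changed by less than 1.3-fold, in opposite directions. SLC3A2 (ENSG00000168003.16, chromosome 11, 62856102 to 62888875) stood at 709, 701, 701 and 751 CPM in control and 548.5, 584, 585 and 581 with TGF-β1, a log2 fold change of -0.31 (SE 0.04, edgeR adjusted p = 7.0e-07). SLC7A5 (ENSG00000103257.8, chromosome 16, 87830023 to 87869488) stood at 1384, 1389, 1345 and 1398 CPM in control and 1442, 1597, 1475 and 1542 with TGF-β1. The TGF-β1 libraries were all higher, by a log2 fold change of 0.14 (SE 0.04, edgeR adjusted p = 0.0023). That rise was not called with library totals (log2 fold change 0.04, edgeR adjusted p = 0.35), where it stood 0.12 above the median of all genes. The alternatives tried gave it adjusted p-values of 0.0005 to 0.35 in all. The authors' deposited table gives SLC7A5 a log2 fold change of 0.14 with q = 0.000162.

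**Figure D2:**
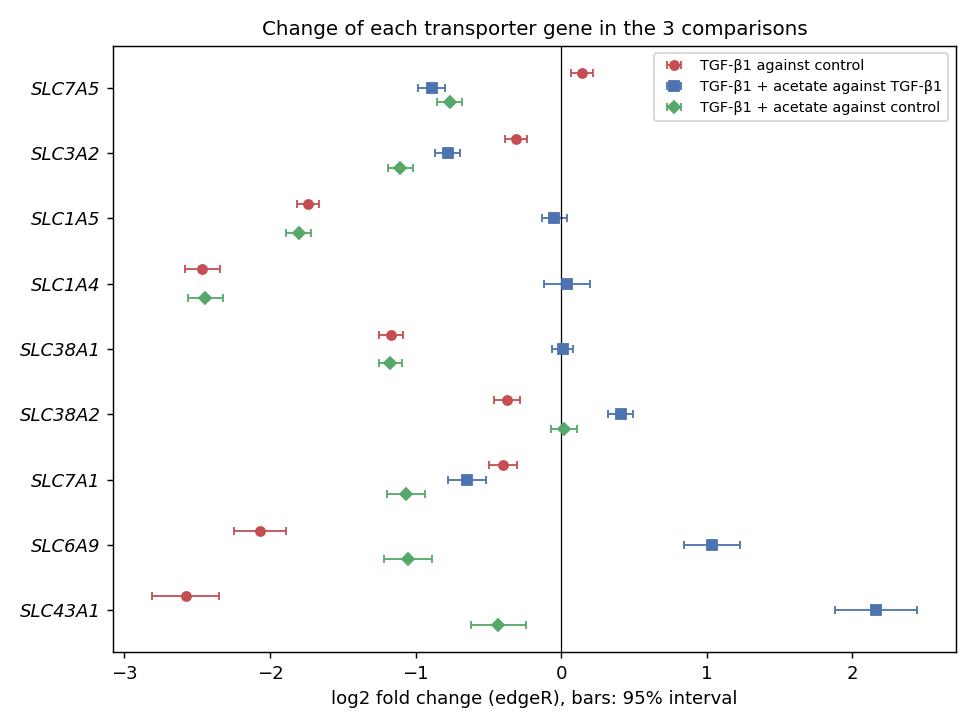
Log2 fold change of each transporter gene from edgeR with its 95% interval, for TGF-β1 against control (circles), TGF-β1 with acetate against TGF-β1 alone (squares) and TGF-β1 with acetate against control (diamonds). SLC1A5, SLC1A4 and SLC38A1 have squares at 0 within their intervals, SLC7A5, SLC3A2 and SLC7A1 squares below 0, and SLC38A2, SLC6A9 and SLC43A1 squares above 0.

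The second comparison asked what acetate changed in cells that also had TGF-β1. The 9 genes divided evenly: 3 rose, 3 fell and 3 were not called, where 63.7% of all 22336 tested genes were called, 33.3% higher and 30.4% lower. Their median log2 fold change was 0.01, and 0.03 over all genes. None of the 9 fell by at least 2-fold, as 2.07% of all genes did. Groups did not overlap for 6 of the 9, against 57.1% of all genes. This comparison and the first share the TGF-β1 libraries, so a low or high value there moves both.

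For the leucine exchanger, transcripts of both chains fell. SLC7A5 went to 872, 760, 798 and 812 CPM with acetate, with every library below those with TGF-β1 alone (log2 fold change -0.89, SE 0.04, edgeR adjusted p = 6.0e-11). SLC3A2 went to 331, 312, 358 and 328 CPM (log2 fold change -0.78, SE 0.04, edgeR adjusted p = 1.7e-10). The arginine and lysine carrier SLC7A1 went to 77.8, 67.0, 60.8 and 72.4 CPM (log2 fold change -0.65, SE 0.06, edgeR adjusted p = 1.8e-07).

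The 3 genes that rose carry leucine and its like, glycine, and glutamine with alanine. SLC43A1 reached 4.25, 4.50, 5.25 and 4.72 CPM, 4.48-fold above TGF-β1 alone (log2 fold change 2.16, SE 0.13, edgeR adjusted p = 1.1e-09). The glycine carrier SLC6A9 reached 9.06, 8.84, 10.3 and 9.32 CPM, 2.05-fold higher (edgeR adjusted p = 7.6e-08). Rises of at least 2-fold were thus found for 2 of the 9, against 10.8% of all genes. SLC38A2 reached 554, 584, 601 and 583 CPM (log2 fold change 0.41, SE 0.04, edgeR adjusted p = 2.9e-07).

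For SLC1A5, SLC1A4 and SLC38A1 no change with acetate was called, and the acetate libraries overlapped those with TGF-β1 alone. SLC1A5 stood at 149, 138, 157 and 149 CPM with acetate (log2 fold change -0.05, 95% interval -0.13 to 0.04, edgeR adjusted p = 0.33). Without TGF-β1 library S15 its log2 fold change was -0.10 and passed (edgeR adjusted p = 0.041), and its adjusted p-values under the alternatives lay between 0.041 and 0.74. SLC1A4 stood at 13.8, 12.5, 12.4 and 13.1 CPM (log2 fold change 0.04, 95% interval -0.12 to 0.20, edgeR adjusted p = 0.65). SLC38A1 stood at 272, 276, 263 and 267 CPM (log2 fold change 0.01, 95% interval -0.06 to 0.08, edgeR adjusted p = 0.79). With library totals SLC1A4 and SLC38A1 passed at log2 fold changes of 0.17 and 0.14 (edgeR adjusted p = 0.045 and 0.0032), values 0.01 above and 0.01 below the median of all genes under that scaling. Under the alternatives tried, adjusted p-values lay between 0.045 and 0.94 for SLC1A4 and between 0.0032 and 0.98 for SLC38A1.

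Against control, cells with both agents had 8 of the 9 genes lower and 0 higher, where 70.6% of all 22742 tested genes were called, 34.4% lower and 36.1% higher. Of the 9, 6 were lower by at least 2-fold, against 5.47% of all genes, and 14.3% of all genes were higher by as much. This comparison shares libraries with both others. SLC38A2 was not called (edgeR unadjusted p = 0.65, log2 fold change 0.02, 95% interval -0.07 to 0.11), so 0 of the 9 were higher at an unadjusted p under 0.05 too, and DESeq2 also called 0 higher. SLC1A4, SLC1A5, SLC38A1, SLC3A2, SLC7A1 and SLC6A9 had log2 fold changes of -2.44, -1.80, -1.17, -1.11, -1.07 and -1.05. SLC7A5 was lower by -0.77 and SLC43A1 by -0.43 (edgeR adjusted p = 2.4e-12 and 0.00025). The groups did not overlap for 8 of the 9, against 64% of all genes.

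Ratios within a library do not depend on scaling between libraries, so related genes were also compared per kilobase inside each library, in 9 exact two-sided permutation tests of 4 against 4 libraries. The height of a ratio depends on the transcript lengths used: with median lengths SLC7A5 to SLC3A2 was 0.289, 0.395 and 0.366 in control, TGF-β1 and acetate. The change between groups is the same with either length. The smallest p such a test allows is 0.0286, or 0.0367 after adjustment here. SLC7A5 to SLC3A2 was 0.956, 0.970, 0.940 and 0.912 in control, 1.29, 1.34, 1.24 and 1.30 with TGF-β1, and 1.29, 1.19, 1.09 and 1.21 with acetate. The light chain transcript thus rose relative to that of its heavy chain by 1.37-fold under TGF-β1 (exact permutation p = 0.0286, adjusted 0.0367). The acetate libraries overlapped those with TGF-β1 alone (0.927-fold, exact permutation p = 0.0857, adjusted 0.0964). SLC38A2 to SLC38A1 rose from 1.56 ± 0.0889 in control to 2.70 ± 0.0769 with TGF-β1 and 3.56 ± 0.175 with acetate (SD, n = 4), with no overlap between any of the groups (each exact permutation p = 0.0286, adjusted 0.0367). SLC1A5 to SLC1A4 rose from 14.8 ± 0.553 to 24.7 ± 2.32 with TGF-β1 (exact permutation p = 0.0286, adjusted 0.0367, n = 4), and was 23.04 ± 1.60 with acetate (exact permutation p = 0.314 against TGF-β1).

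**Figure D3:**
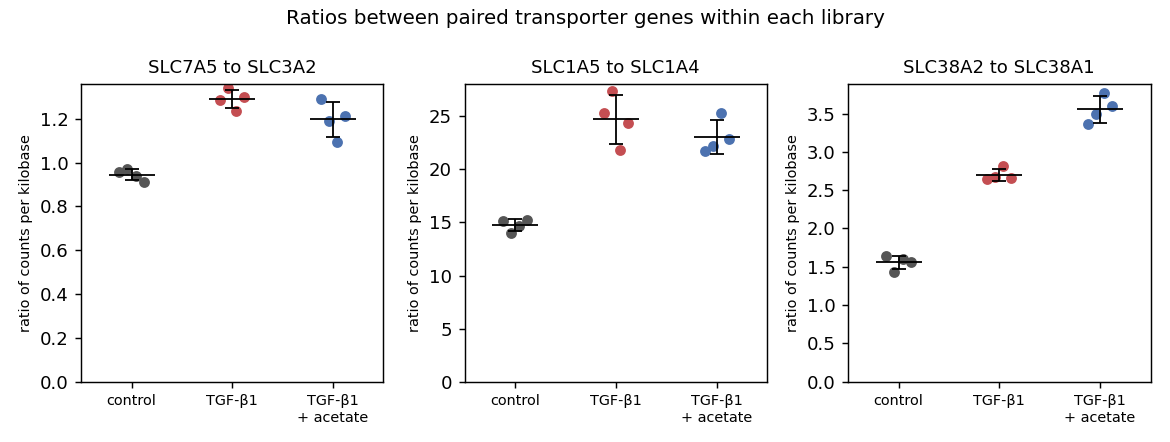
Ratio of counts per kilobase between related transporter genes in each library, with 1 point per library and the mean and SD of each group of 4. SLC7A5 to SLC3A2 is higher in all TGF-β1 and acetate libraries than in any control library, and SLC38A2 to SLC38A1 steps up from 1.56 to 2.70 to 3.56. The height of each ratio depends on the longest transcript lengths used, and only the change between groups does not.

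Other genes share sequence or position with these transporters, and the counter's strand setting is not given in the sources used here. On the strand opposite SLC7A5, AC126696.2 stood at 132 ± 2.87, 149 ± 4.36 and 81.0 ± 2.97 CPM in control, TGF-β1 and acetate, with log2 fold changes of 0.18 and -0.87 beside 0.14 and -0.89 for SLC7A5. Opposite SLC1A5, AC008622.2 stood at 142 ± 6.13, 45.8 ± 2.13 and 44.1 ± 4.29 CPM. Opposite SLC6A9, CCDC24 stood at 6.86 ± 0.0804, 4.56 ± 0.533 and 6.76 ± 0.722 CPM. Reads of each such pair cannot be told apart without strand, so these levels are uncertain. The SLC7A5 copies SLC7A5P1 and SLC7A5P2 stood at 1.91 ± 0.159 and 4.40 ± 0.509 CPM in control, far below SLC7A5 itself.

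By root mean square difference of centred log2 CPM over the 12 libraries, the 5 genes most like SLC7A5 among 10122 protein-coding genes of at least 10 CPM were MBD3, KIF22, RPS12, CDC20 and SKA3, at distances of 0.045, 0.057, 0.061, 0.063 and 0.063. MBD3 is a subunit of a chromatin remodeller, KIF22 a mitotic kinesin, RPS12 a ribosomal protein, CDC20 an activator of the mitotic ubiquitin ligase and SKA3 a kinetochore protein. RPS12 went from 411 ± 3.76 to 450 ± 10.4 and 237 ± 6.94 CPM. SLC3A2 itself was at 0.200 from SLC7A5 and at 0.142 from SLC7A1.

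Beyond the 10 genes, 26 other plasma membrane carriers were listed and 16 tested in each comparison. The 16 were not all the same genes: SLC6A14 was tested only under TGF-β1, and SLC38A5 only in the comparisons with acetate. Under TGF-β1 6 rose and 8 fell (median log2 fold change -0.48, and 0.02 over all genes). With acetate 12 rose and 2 fell (median 0.83, and 0.03 over all genes). Shares over all tested genes were 34.1% higher and 32.8% lower under TGF-β1, and 33.3% and 30.4% with acetate. Some genes that rose with acetate were barely expressed. With TGF-β1 alone SLC1A2 stood at 0.088, SLC7A9 at 0.35, SLC16A10 at 0.729 and SLC7A10 at 1.52 CPM. SLC7A11, which exchanges cystine for glutamate and also pairs with SLC3A2, fell from 971 ± 60.9 to 236 ± 14.2 CPM under TGF-β1 and rose to 288 ± 6.92 with acetate (n = 4; edgeR adjusted p = 2.2e-15 and 1.2e-05). SLC7A7 and SLC7A6, light chains of SLC3A2 that exchange cationic for neutral amino acids, moved apart. SLC7A7 went from 44.2 ± 0.943 to 34.8 ± 1.80 and 104 ± 3.44 CPM, and SLC7A6 from 56.9 ± 2.15 to 78.8 ± 3.07 and 69.4 ± 3.42. SLC6A6, the taurine carrier, went from 131 ± 3.35 to 68.4 ± 0.991 and 121 ± 4.00 CPM. Each of these changes passed in edgeR, the largest adjusted p being 0.0023, for SLC7A6 with acetate.

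Of 8 tested genes listed as carriers of lysosomes and endosomes, 6 rose under TGF-β1 and 2 were not called (median log2 fold change 0.22). With acetate 4 rose and 4 were not called (median 0.08). Over all tested genes 66.9% were called under TGF-β1 (34.1% higher, 32.8% lower) and 63.7% with acetate (33.3% higher, 30.4% lower). SLC36A1, which moves small amino acids out of lysosomes with protons, rose from 10.6 ± 0.619 to 31.3 ± 0.907 CPM under TGF-β1 and was 30.5 ± 1.62 with acetate. SLC38A9, a lysosomal arginine sensor, went from 28.1 ± 0.653 to 30.8 ± 1.19 and 39.6 ± 1.85 CPM. SLC38A10, whose place in the cell was not measured, stood at 94.7 ± 2.92, 91.9 ± 4.24 and 104 ± 6.57 CPM. Of its steps the acetate step was called (edgeR adjusted p = 0.0021). SLC15A4, a carrier of histidine and small peptides, went from 31.9 ± 1.08 to 34.1 ± 1.04 and 36.7 ± 0.913 CPM.

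ATF4 and its targets that are not transporters fell in 24 of 25 cases under TGF-β1, and 1 was not called (median log2 fold change -1.59). That list was drawn up with results of these data known and is no independent evidence. With acetate 6 rose and 11 fell (median -0.02). Over all tested genes 32.8% fell and 34.1% rose under TGF-β1, and 30.4% and 33.3% with acetate. ATF4 itself stood at 322, 331, 333 and 342 CPM in control, 195, 206, 277 and 214 with TGF-β1, and 147, 148, 156 and 149 with acetate. The asparagine synthetase gene ASNS went from 252 ± 9.36 to 37.8 ± 4.01 and 17.4 ± 1.55 CPM, and the serine synthesis gene PSAT1 from 613 ± 0.917 to 115 ± 6.13 and 113 ± 4.25. TRIB3, a pseudokinase that restrains ATF4, went from 661 ± 49.6 to 29.3 ± 3.404 and 46.7 ± 2.29 CPM, and the stress gene DDIT4 from 380 ± 9.29 to 185 ± 32.9 and 104 ± 7.05.

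TGF-β1 library S17 stood above its group in ATF4 (277 CPM), in DDIT4 (234 against 165 to 171) and in CHAC1 (7.91 against 0.686 to 0.950), a glutathione-degrading ATF4 target named after its values were seen. Without that library all 9 transporter calls under TGF-β1 and all 6 with acetate kept their direction and stayed past the threshold. SLC1A4 and SLC38A2 were then at log2 fold changes of -2.54 and -0.41 under TGF-β1.

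Cytosolic aminoacyl-tRNA synthetases, which charge tRNAs with the amino acids that these carriers bring in, fell in 16 of 20 cases and rose in 4 under TGF-β1 (median log2 fold change -0.54). With acetate 18 fell and 2 were not called (median -0.25). Over all tested genes 32.8% fell and 34.1% rose under TGF-β1, and 30.4% and 33.3% with acetate. IARS1, for isoleucine, went from 945 ± 31.9 to 470 ± 11.95 and 331 ± 8.30 CPM, TARS1 from 522 ± 10.2 to 400 ± 13.3 and 275 ± 6.13, EPRS1 from 420 ± 7.85 to 251 ± 7.85 and 218 ± 5.56, and AARS1 from 519 ± 8.62 to 177 ± 7.87 and 152 ± 3.28.

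The growth kinase mTORC1 is switched on by leucine and arginine. Genes that sense amino acids for it rose in 12 of 22 cases and fell in 5 under TGF-β1 (median log2 fold change 0.16). With acetate 7 rose and 7 fell (median -0.09). Over all tested genes 66.9% were called under TGF-β1 (34.1% higher, 32.8% lower) and 63.7% with acetate (33.3% higher, 30.4% lower). The GTPase gene RRAGA went from 49.5 ± 2.12 to 75.1 ± 2.92 and 64.5 ± 3.05 CPM, and FNIP1, a partner of folliculin, from 44.3 ± 2.15 to 65.5 ± 2.94 and 63.9 ± 3.01. SAR1B, a leucine sensor, went from 76.0 ± 1.54 to 69.97 ± 3.24 and 85.7 ± 3.12 CPM, and LAMTOR1, which anchors the complex to lysosomes, was called in neither step. Of 16 genes of glutamine and glutamate metabolism 3 rose and 8 fell under TGF-β1 (median -0.10). With acetate 6 rose and 4 fell (median -0.002). Calls of both directions together were about as frequent in this list as over all tested genes. Under TGF-β1, though, falls outnumbered rises here, where 32.8% of all tested genes fell and 34.1% rose. CTPS1, which spends glutamine on CTP, went from 167 ± 5.77 to 186 ± 7.95 and 206 ± 12.8 CPM. GLUD1, glutamate dehydrogenase, stood at 180 ± 5.04, 175 ± 3.34 and 142 ± 1.83 CPM, of which the acetate step was called, and the aminotransferase GOT2 was called in neither. For breakdown of branched-chain amino acids, 9 of 15 genes were lower and 2 higher under TGF-β1 (median -0.34). With acetate 10 were higher and 2 lower (median 0.16), to be read beside the same shares over all genes. BCAT1, which starts that breakdown, went from 240 ± 17.6 to 141 ± 3.51 and 137 ± 6.64 CPM, and HIBADH, of valine breakdown, from 61.9 ± 0.933 to 48.8 ± 0.906 and 95.9 ± 1.87. MCCC2, of leucine breakdown, went from 95.6 ± 2.69 to 61.5 ± 3.51 and 68.2 ± 0.549 CPM, and DLD, a shared dehydrogenase subunit, from 125 ± 5.24 to 112 ± 1.84 and 122 ± 2.03.

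**Figure D4:**
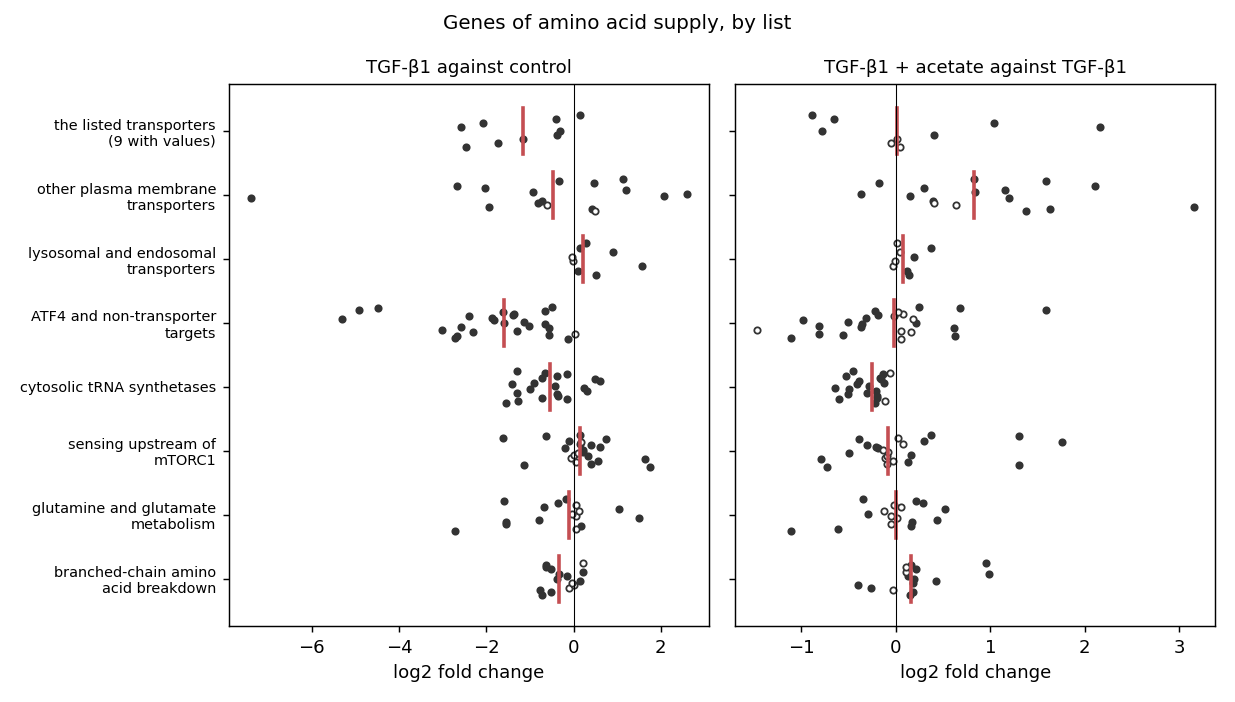
Log2 fold change of each tested gene in the 8 lists of amino acid supply, for TGF-β1 against control (left) and acetate added to TGF-β1 (right). Filled points passed in edgeR, open points did not, red bars are list medians, and points are spread vertically for visibility. Under TGF-β1 24 of 25 genes of the ATF4 list are called to the left of 0, and with acetate 18 of 20 tRNA synthetases are. Over all tested genes 32.8% and 30.4% were called lower in these comparisons.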

How the data were processed

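Stranded, ribosomal-RNA-depleted total RNA libraries from A549 were read as pairs of 75 bp, per the labels' protocols. The submitters' processing notes name bcl2fastq, HISAT2, hg38 and limma. Tool versions, the annotation, the counter and its strand setting were not given in the sources used here. The authors deposited raw counts per gene in 2 tables, with their own log2 fold changes, p-values and q-values, of which only those of SLC7A5 are quoted. A further 32 columns of per-library values were left aside. Both tables hold the TGF-β1 libraries, and their counts were the same for each of 23771 shared genes.

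Genes were tested with edgeR 4.0.16 under R 4.3.3: filterByExpr (minimum count 10), TMM, glmQLFit and glmQLFTest. Its two-sided p-values were adjusted by Benjamini-Hochberg across every tested gene, and a gene below 0.05 is "called". The first and second comparisons were fitted within their tables, and the last over 12 libraries joined on shared genes. Levels are TMM-scaled CPM. Total counts per library, from 34698057 up, limit precision by counting error only for the lowest genes. Alternatives were library totals, DESeq2 1.42.0, limma-voom (limma 3.58.1), no filter, other libraries in the fit, and leaving out each library. The code was tested on simulated data. Ratios were compared in scipy 1.17.1.

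Identifiers matched GENCODE release 29 for 99.1% of genes, and 134 of 155 listed genes had a row. The members and lists were chosen with earlier results of these data known. Some lists share genes, namely ASNS, GPT2, SESN2 and SLC38A9, so their counts are not separate. Named genes are the members, the 4 most abundant of each other list (1 of them is not reported here), SLC7A11, ATF4, ASNS and the 5 genes most like SLC7A5.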

Additional observations from a re-analysis of the deposited data

Results flagged for a closer look

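Among the 27 sets of 4 libraries (9 transporter genes in 3 groups), 2 held a library far from the others, both for SLC3A2; chance alone sets apart about 1 in 20. In control, library S4 stood at 751 CPM against 701 to 709 in the other libraries. With TGF-β1, library S15 stood at 548.5 CPM against 581 to 585. Without library S4 the log2 fold change of SLC3A2 under TGF-β1 was -0.31, and without library S15 it was -0.29 under TGF-β1 and -0.83 with acetate, all still past the threshold in edgeR (adjusted p = 1.5e-06, 2e-06 and 3.5e-11).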

How the results depend on the processing

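No paired analysis was possible because the count columns carry no replicate numbers. Of 27 transporter fold changes, 22 kept their direction and their side of the threshold under all 13 alternatives each. The others were the SLC7A5 rise under TGF-β1 and 4 values near 0 that were not called.

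With library totals the SLC7A5 rise was 0.04 (edgeR adjusted p = 0.35), and with acetate SLC1A5 turned to 0.0842 while SLC1A4 and SLC38A1 passed at 0.17 and 0.14. With DESeq2 SLC38A1 turned to -0.0088 with acetate, and SLC38A2 to -0.0025 with both agents against control, or -0.0007 in edgeR with only those groups in the fit. Leaving out 1 library at a time moved the acetate log2 fold change of SLC1A4 between -0.0264 and 0.0862 and that of SLC38A1 between -0.0292 and 0.0204. It moved SLC38A2 against control between -0.0181 and 0.0448. None of these passed, while SLC1A5 passed at -0.0993 without S15. Leaving out 1 library gave 14297 to 14702 calls for TGF-β1, 13523 to 14302 for acetate and 15463 to 15835 for both agents. Members called were 9, 6 to 7 and 8. With median in place of longest transcript lengths, 32, 32 and 29 of 36 pairs of genes kept their order of level in control, TGF-β1 and acetate.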

Other observations

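Likeness was also computed for the other transporters, and the neighbours named here were chosen after their values were seen. By the same distance over 12 libraries, the gene nearest SLC43A1 was SLC7A2, a carrier of cationic amino acids, at a distance of 0.124. It stood at 54.8 ± 4.34, 8.59 ± 0.820 and 36.7 ± 1.68 CPM in the control, TGF-β1 and acetate groups (SD, n = 4). The gene nearest SLC1A4 was PSAT1, of serine synthesis, at 0.080. The gene nearest SLC38A2 was RNF13, a ubiquitin ligase of endosomes and lysosomes, at 0.048, with 71.6 ± 0.448, 53.7 ± 1.41 and 70.3 ± 4.02 CPM.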
